A study of Mus musculus with 6 samples.

Results

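The stellate cell transcription factors are 10 genes whose products were named as regulators of the identity or the activation of hepatic stellate cells: Hand2, Tcf21, Lhx2, Foxf1, Gata4, Gata6, Ets1, Ets2, Sox9 and Nr1h4. Each was represented by the probe set of the array whose annotation gave that gene symbol alone, and each had 1 such probe set. All 10 were among the 22180 genes measured in this way and among the 15526 genes with enough signal to be tested. Hepatic stellate cells are the pericytes of the liver sinusoid, and the study asked how their transcripts differ when they are activated in culture and then exposed to PRI-724. Transcripts were measured on 6 Affymetrix arrays, 1 for each of 3 states and 2 ages, and each array held RNA from primary cells pooled from 5 mice. The old mice were 6 to 9 months of age and the young mice 8 to 11 weeks. PRI-724 cells had been activated by more than 20 days of culture on uncoated plastic in serum-containing medium and given C-82, the active form of PRI-724, at 10 µM. Vehicle cells had the same culture without C-82, which was dissolved in dimethyl sulfoxide, and quiescent cells from normal liver had been plated for 12 h. No genotype, strain, sex or duration of C-82 exposure is given in the labels used here. Whether the vehicle and quiescent cells of an age came from the same mice is not given either.

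Stellate cells arise from the mesoderm of the septum transversum and from mesothelium, and they keep a set of mesenchymal transcription factors in the adult liver. Quiescent cells store retinyl esters, and on plastic or in injured liver they turn into contractile cells that secrete collagen. Hand2 and Tcf21 are basic helix-loop-helix factors of visceral mesenchyme, which bind E-box sequences as partners of E proteins. Lhx2 is a LIM homeodomain factor, and mice that lack it develop hepatic fibrosis. Foxf1 is a forkhead factor of the mesenchyme around gut, lung and liver. Gata4 and Gata6 are zinc finger factors, and Ets1 and Ets2 are the founding pair of the ETS family. Both pairs have been named among lineage factors that restrain stellate cell activation. Sox9 is a high-mobility-group factor of cartilage and bile duct cells that has also been tied to matrix production in stellate cells, and Nr1h4 encodes the bile acid receptor FXR. PRI-724 blocks the binding of beta-catenin, the coactivator of TCF and LEF factors in Wnt signalling, to the histone acetyltransferase CBP.

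Promoter sequence was at hand for 5 of the 10 genes, and 4 windows are shown, those of a pair that was higher in culture (Hand2 and Tcf21) and of a pair that stayed within 1 log2 unit (Nr1h4 and Ets2). Each window is the 250 bases upstream of the annotated start, from RefSeq on GRCm38.p6, written 5′ to 3′ on the strand of the gene, and capitals mark matches on either strand to the motifs searched:
Hand2, chr8:57320733-57320982, plus strand: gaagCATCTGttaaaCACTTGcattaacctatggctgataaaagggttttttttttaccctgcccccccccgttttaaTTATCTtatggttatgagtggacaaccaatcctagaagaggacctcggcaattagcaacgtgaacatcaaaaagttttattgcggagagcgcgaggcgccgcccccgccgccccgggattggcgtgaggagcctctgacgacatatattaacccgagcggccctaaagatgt
Tcf21, chr10:22820144-22820393, minus strand: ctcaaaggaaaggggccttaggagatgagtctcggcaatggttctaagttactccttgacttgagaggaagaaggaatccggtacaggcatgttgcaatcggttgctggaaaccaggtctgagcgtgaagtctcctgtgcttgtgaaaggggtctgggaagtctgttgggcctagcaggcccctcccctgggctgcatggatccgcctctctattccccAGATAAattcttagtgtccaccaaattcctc
Nr1h4, chr10:89506659-89506908, minus strand: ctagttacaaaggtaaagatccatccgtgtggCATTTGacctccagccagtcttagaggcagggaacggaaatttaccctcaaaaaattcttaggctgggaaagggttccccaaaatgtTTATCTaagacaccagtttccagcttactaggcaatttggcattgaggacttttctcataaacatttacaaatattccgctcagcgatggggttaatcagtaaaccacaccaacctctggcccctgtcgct
Ets2, chr16:95702157-95702406, plus strand: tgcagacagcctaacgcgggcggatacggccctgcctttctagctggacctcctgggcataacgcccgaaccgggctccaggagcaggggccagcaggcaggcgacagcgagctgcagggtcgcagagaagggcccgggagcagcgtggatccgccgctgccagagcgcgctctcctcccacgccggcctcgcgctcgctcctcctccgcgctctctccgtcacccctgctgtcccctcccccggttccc
The motifs were the E-box CANNTG, a GATA motif AGATAA, an ETS motif CCGGAA, a TCF/LEF motif ATCAAAG and the TATA box TATAAA. Of 32851 windows of the same length in the table, 66.2% held the E-box, 9.99% the GATA motif, 12.0% the ETS motif, 3.21% the TCF/LEF motif and 12.4% the TATA box. The Hand2 window held 2 E-boxes and a GATA match that begins 172 bases upstream of the start. The Tcf21 window held a GATA match beginning 31 bases upstream and no other match, and the Nr1h4 window held 1 E-box and a GATA match beginning 131 bases upstream. The Ets2 window and both Lhx2 windows held no match, and their content of G and C was 71.6%, 72.8% and 68.4%, against a median of 52.4% over all windows. A match describes the letters in the window and does not show that a factor binds there.

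The cells in the 6 samples were not stellate cells alone, as the markers of other liver cells showed. The 12 stellate markers had median log2 signals of 9.10 (old) and 8.31 (young) with PRI-724, 9.06 and 9.25 with vehicle and 7.75 and 7.51 in quiescent cells, so the labelled cell type was present on every array. Their summed signal was 12.65 and 12.00 with PRI-724, 12.91 and 12.94 with vehicle and 12.43 and 12.80 in quiescent cells. The sums, not the medians, are on the scale of the values that follow. The summed signal of the 8 sinusoidal endothelial markers was 9.42 (old) and 8.88 (young) with PRI-724, 12.44 and 12.85 with vehicle and 11.35 and 13.49 in quiescent cells, in log2 units. The 8 vascular endothelial markers summed to 11.22 and 9.60, to 12.81 and 12.74 and to 12.89 and 13.42 in the same order, and the 10 macrophage markers to 10.88 and 10.28, to 13.02 and 13.08 and to 13.57 and 12.36. The 9 hepatocyte markers summed to 11.21 and 10.04 with PRI-724, to 11.03 and 8.57 with vehicle and to 13.14 and 10.23 in quiescent cells, and the 7 mesothelial markers to 9.99 and 9.71, 9.85 and 9.93, and 8.44 and 8.67. On the PRI-724 arrays, 1 (old) and 2 (young) of the 10 macrophage markers were under 4.70, the limit used below as a filter on mean signal. For the 8 sinusoidal endothelial markers the numbers were 0 and 1. On the vehicle and quiescent arrays 0 markers of these 2 lists were under it. The young PRI-724 array had an interquartile range of 1.71 log2 units over the tested genes, against 2.11 to 2.43 on the other 5 arrays.

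**Figure D1:**
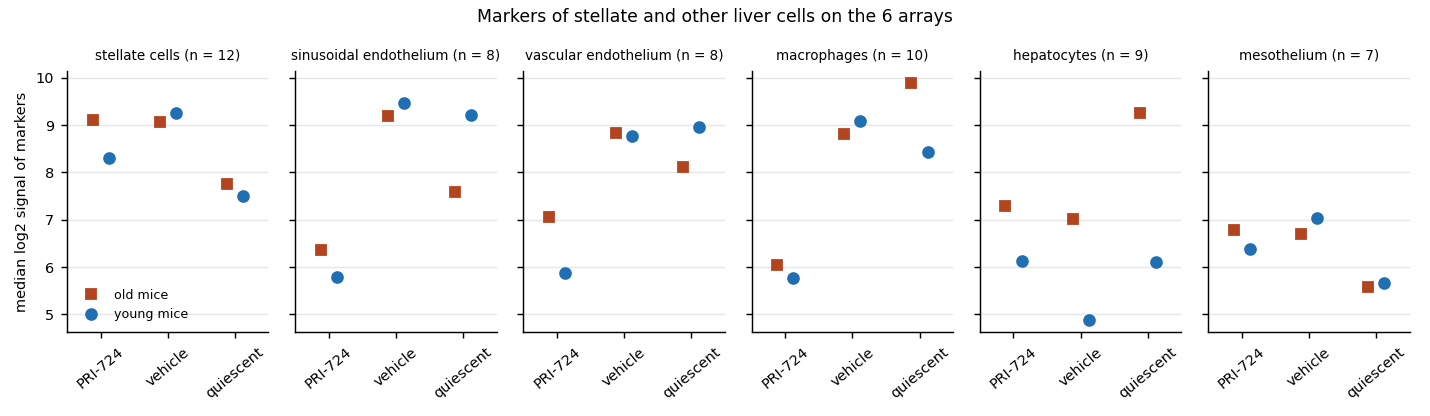
Median log2 signal of the markers of each cell type (vertical axis) on the 6 arrays, by state (horizontal axis) and age (squares old, circles young), with the number of markers in each title. Endothelial and macrophage markers were lowest on the PRI-724 arrays, hepatocyte markers were higher on the old array in every state, and mesothelial markers were higher on the 4 arrays of cultured cells than on the quiescent ones.

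The first comparison asked which of these factors were held through culture activation and which moved. Hand2, Tcf21 and Gata6 rose in vehicle cells relative to quiescent cells, by 4.58-fold, 3.16-fold and 2.23-fold, and no member fell. Lhx2 and Foxf1 were estimated at 2.06-fold and 2.10-fold without passing the test. Gata4, Ets1, Ets2, Sox9 and Nr1h4 stayed within 1 log2 unit of their quiescent level in both ages. Thus 3 of the 10 members rose and 0 fell, where 4.61% of all 15526 tested genes rose and 1.26% fell (limma, adjusted p of 0.05). The members were chosen with earlier results of these data known, and their counts were not tested against the shares of all genes. The members had a median difference of 0.77 log2 units, beside 0.04 over all tested genes. By the 2 pairs alone, without a test, 3 members were at least 1 log2 unit higher in both ages (4.06% of tested genes) and 0 at least 1 unit lower (1.15%), 5 were within 1 unit of 0 in both ages (82.5% of tested genes), and Lhx2 and Foxf1 passed 1 unit in the young pair only. At an unadjusted p under 0.05 there were 5 members (22.4% of tested genes). In both ages 7 members were higher (40.7% of tested genes) and 2 lower (33.4%), and Ets2 alone had opposite signs (25.9%).

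Hand2 had log2 signals of 7.93 (old) and 8.22 (young) in vehicle cells, against 5.87 and 5.89 in quiescent cells. The vehicle arrays were far above the quiescent ones, and the ages were close within each state. The difference was 2.20 ± 0.31 log2 units (SE, n = 2 pairs of arrays, adjusted p = 0.0072), and it was past the threshold under each of the 14 other settings tried, with values of 1.88 to 2.51. Some of these settings refit the same arrays. Tcf21 had 8.45 (old) and 7.63 (young) in vehicle cells, against 6.41 and 6.35 in quiescent cells, again without overlap. Its difference was 1.66 ± 0.33 (adjusted p = 0.0206). The old pair moved by 2.03 and the young pair by 1.29. The call of Tcf21 was lost with only the arrays of the states compared (adjusted p = 0.0510) and without age in the model (0.110). It was also lost after cyclic loess (0.0526) or quantile normalization (0.0881). Leaving out either PRI-724 array lost it too, in effect the refit with only the arrays compared, and the difference stayed at 1.66. Without the old quiescent array it was lost at 1.17.

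Gata6 had 8.83 (old) and 8.36 (young) in vehicle cells, against 7.75 and 7.12 in quiescent cells. Vehicle was higher at both ages, by 1.08 in the old and 1.24 in the young pair, and the old array was higher in both states. The difference of 1.16 ± 0.29 passed narrowly (adjusted p = 0.0473). Leaving out any array ended that call. The difference was 1.07 and 1.25 without the old and young quiescent arrays and 1.37 and 0.95 without the old and young vehicle arrays. With either PRI-724 array left out it stayed at 1.16, in effect the refit with only the arrays compared (adjusted p = 0.0526). The call was also lost after quantile normalization (0.0560) and without age in the model (0.206). Gata4, its close relative, had 9.00 and 8.89 in vehicle cells, against 8.91 and 8.53 in quiescent cells. The groups overlapped, and the difference was 0.23 ± 0.27 (adjusted p = 0.673). Gata6 passed the test and Gata4 did not, and the difference between the 2 genes was not tested. Gata4 is also a factor of sinusoidal endothelium, whose markers had a median difference of 0.90 in the old and -0.24 in the young pair in this comparison. Gata6 and Gata4 are made in mesothelium too. Of the 7 mesothelial markers 3 rose in vehicle cells. They were Upk1b, a uroplakin, at 2.48 ± 0.28, Lrrn4 at 2.06 ± 0.27 and Gpm6a at 1.24 ± 0.28. Of the 12 stellate markers 6 rose, among them Des by 2.39 ± 0.38 and Pdgfrb by 1.73 ± 0.26, and 1 fell. The stellate markers had a median difference of 0.92, beside 0.77 for the members. Of the 9 hepatocyte markers 3 fell, among them Alb at -2.09 ± 0.38, and 0 rose. The part of any of these cell types in the rise of Hand2, Tcf21 and Gata6 was not tested. In bulk samples, a larger share of cells of a type and more RNA in each such cell cannot be told apart.

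Foxf1 had 9.73 (old) and 9.66 (young) in vehicle cells, against 9.31 and 7.94 in quiescent cells. The young quiescent array was well below the other 3. The old pair differed by 0.41 and the young pair by 1.72, and the fit gave 1.07 ± 0.31 (adjusted p = 0.0779). Foxf1 was called when the old quiescent (1.58, adjusted p = 0.00612) or the old vehicle array (1.54, 0.0102) was left out, and stood at 0.56 and 0.60 without the young quiescent or vehicle array. Lhx2 had 8.20 and 8.04 in vehicle cells, against 7.34 and 6.82 in quiescent cells, with no overlap. Its difference was 1.04 ± 0.28 (adjusted p = 0.0590), and it was called only without the intensity trend in the variance (0.0492). Lhx2 was higher after culture at both ages, by 0.86 in the old and 1.22 in the young pair.

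The ETS pair and Sox9 were lower in vehicle cells in most pairs, without passing the test. Ets1 had 8.74 (old) and 8.80 (young) in vehicle cells, against 9.19 and 9.14 in quiescent cells, lower at both ages and without overlap. Its difference was -0.39 ± 0.26 (adjusted p = 0.409). Ets2 had 8.59 and 9.40 in vehicle cells, against 9.16 and 9.36 in quiescent cells, so only the old vehicle array was low. The fit gave -0.26 ± 0.27 (adjusted p = 0.619). Sox9 had 6.80 and 6.02 in vehicle cells, against 7.27 and 6.73 in quiescent cells. It was lower in vehicle cells at both ages, and the groups overlapped because the old array was higher in each state. The difference was -0.59 ± 0.28 (adjusted p = 0.253). Nr1h4 had 6.57 and 6.58 in vehicle cells, against 6.44 and 5.69 in quiescent cells, without overlap and with a difference of 0.51 ± 0.29 (adjusted p = 0.342).

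**Figure D2:**
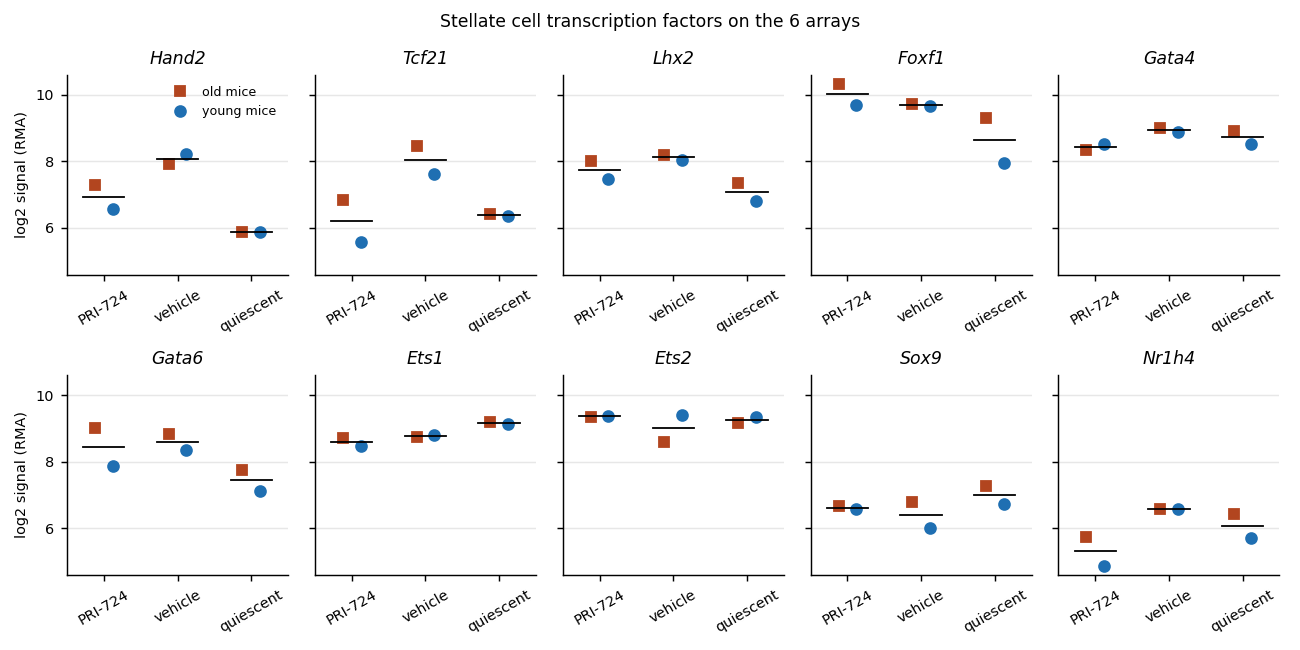
Log2 signal (vertical axis) of the 10 genes on the 6 arrays, by state (horizontal axis) and age (squares old, circles young). Horizontal bars are means of the 2 ages. Hand2 and Tcf21 were highest on the vehicle arrays, Foxf1 was lowest on the young quiescent array at 7.94, and Gata4 and Ets1 spanned 0.66 and 0.71 log2 units over all 6 arrays.

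**Figure D3:**
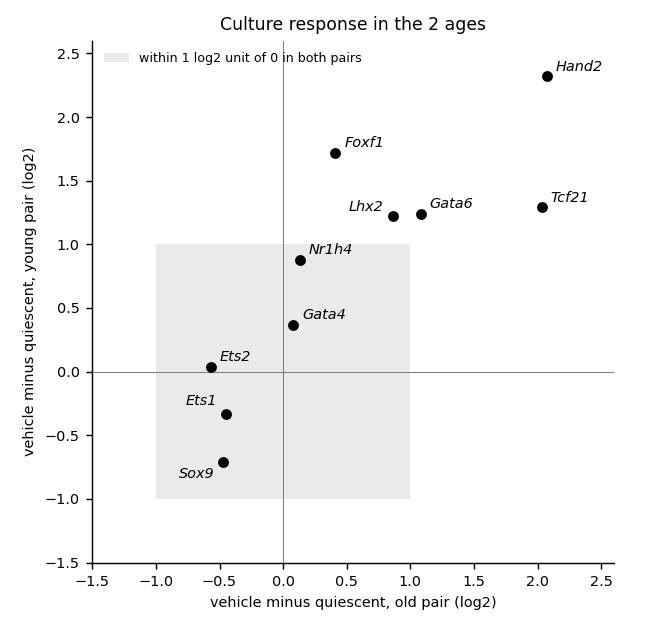
Vehicle minus quiescent difference in the old pair (horizontal axis) against that in the young pair (vertical axis), in log2 units, with 1 point for each gene. The grey square holds the 5 genes within 1 log2 unit of 0 at both ages, and Hand2, Tcf21 and Gata6 lie beyond 1 unit on both axes.

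Activated cells with and without PRI-724 were set against each other next. Tcf21 fell by 1.84 ± 0.33 log2 units, and it was the only member past the threshold. Nr1h4 and Hand2 had the next lowest values, at -1.28 ± 0.29 (adjusted p = 0.0569) and -1.15 ± 0.31 (adjusted p = 0.106). The other 7 members lay between -0.52 and 0.37. So 1 of 10 members fell and 0 rose, where 1.93% of all tested genes fell and 0.271% rose, and the median was -0.27 for the members and -0.05 for all tested genes. At an unadjusted p under 0.05 there were 3 members (15.5% of tested genes). In both ages 6 members were lower (35% of tested genes) and 1 higher (25.8%), and 3 had opposite signs (39.1%).

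Tcf21 had 6.84 (old) and 5.56 (young) in PRI-724 cells, against 8.45 and 7.63 in vehicle cells. Every PRI-724 value was below every vehicle value, and the old array was higher in both states. The old pair differed by -1.60 and the young pair by -2.07 (adjusted p = 0.0221). This call was lost when the young (-1.42, adjusted p = 0.501) or the old PRI-724 array (0.0551) was left out, after cyclic loess (0.0835) or quantile normalization (0.122) and without age in the model (0.133). Without the young PRI-724 array, 0 of 15526 genes passed in limma and 997 had an unadjusted p under 0.05. Hand2 had 7.30 and 6.56 in PRI-724 cells, against 7.93 and 8.22 in vehicle cells, with pair differences of -0.64 (old) and -1.66 (young). It was called with either quiescent array left out, at the same -1.15. It was not called with only the arrays compared (adjusted p = 0.0556), in effect the same refit. Both helix-loop-helix genes had lower signals with PRI-724 than with vehicle at both ages, and only Tcf21 passed.

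Nr1h4 had 5.73 (old) and 4.86 (young) in PRI-724 cells, against 6.57 and 6.58 in vehicle cells. The groups did not overlap, and the young PRI-724 value was close to the limit of 4.70 used as a filter on mean signal. Nr1h4 was called with only the arrays compared (adjusted p = 0.00242), at the same difference of -1.28 and an SE of 0.32, against 0.29 over all arrays. It was also called with either quiescent array left out, in effect that same refit (-1.28). Without the old vehicle array it was called at -1.69. Gata4 had 8.34 and 8.52 in PRI-724 cells, against 9.00 and 8.89 in vehicle cells, lower at both ages and not called (-0.52 ± 0.27, adjusted p = 0.403). In the same comparison 7 of 8 sinusoidal endothelial markers fell (medians of -2.76 in the old and -3.75 in the young pair), 8 of 8 vascular endothelial markers fell (-1.60 and -2.88), and 8 of 10 macrophage markers fell (-2.45 and -2.81). Of the 12 stellate markers 1 fell, Lrat by 1.69 ± 0.31, and 0 rose, with medians of -0.09 in the old and -1.17 in the young pair. Of the 9 hepatocyte markers 0 rose and 0 fell, with medians of 0.05 in the old and 0.96 in the young pair. The part of any of these cell types in the values of Tcf21, Hand2, Nr1h4 and Gata4 was not tested.

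Gata6 and Ets1 differed from vehicle by less than their SE. Gata6 had 9.02 (old) and 7.86 (young) in PRI-724 cells, against 8.83 and 8.36 in vehicle cells, and Ets1 had 8.72 and 8.48, against 8.74 and 8.80. Their differences of -0.15 ± 0.29 and -0.17 ± 0.26 turned positive after cyclic loess (0.07 and 0.01) and quantile normalization (0.16 and 0.11). Ets1 is also a factor of endothelial cells. Its values with PRI-724 stood beside those of Erg and Fli1, endothelial ETS factors (Erg is also among the vascular endothelial markers), which fell by 2.33 ± 0.46 and 2.07 ± 0.31. Ets2 had 9.36 and 9.38, against 8.59 and 9.40 (0.37 ± 0.27), and Lhx2 had 8.01 and 7.47, against 8.20 and 8.04 (-0.38 ± 0.28). Sox9 had 6.66 and 6.57 in PRI-724 cells, against 6.80 and 6.02 in vehicle cells (0.21 ± 0.28). Foxf1, at 10.34 and 9.70, against 9.73 and 9.66, had a higher signal at both ages without passing (0.33 ± 0.31).

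**Figure D4:**
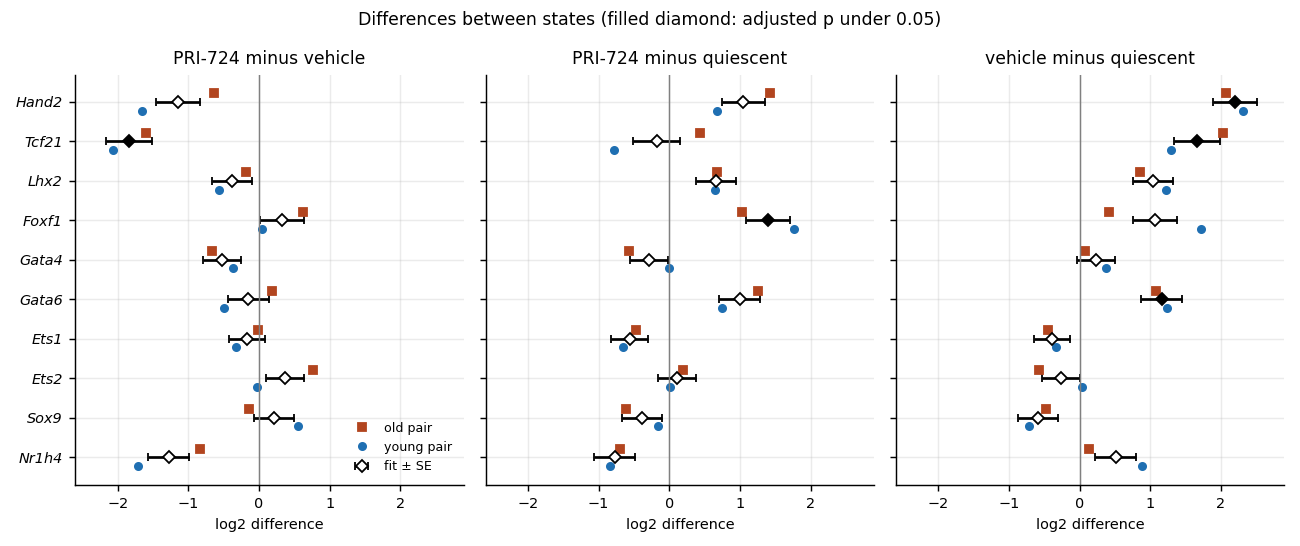
Log2 differences between states (horizontal axes) for the 10 genes (rows). Diamonds with bars are the limma estimates ± SE, filled where the adjusted p was under 0.05, squares are the old pair and circles the young pair. Tcf21 is filled at -1.84 for PRI-724 minus vehicle, Foxf1 at 1.40 for PRI-724 minus quiescent, and Hand2, Tcf21 and Gata6 at 2.20, 1.66 and 1.16 for vehicle minus quiescent.

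The third comparison set PRI-724 cells against quiescent cells, and it shares its arrays with both of the others. Foxf1 rose by 1.40 ± 0.31 log2 units or 2.63-fold (adjusted p = 0.0402), and no member fell. Its values were 10.34 (old) and 9.70 (young) in PRI-724 cells, against 9.31 and 7.94 in quiescent cells, with no overlap. Of the 10 members 1 rose, where 1.28% of all tested genes rose and 2.43% fell, and the median was -0.04 beside 0.03. At an unadjusted p under 0.05 there were 5 members (16.3% of tested genes). Both pairs were higher for 5 members (30.8% of tested genes) and lower for 4 (24.9%), and Tcf21 alone had opposite signs (44.3%). The call of Foxf1 was lost after cyclic loess (adjusted p = 0.0728) or quantile normalization (0.0634), without the intensity trend (0.0522) and without age in the model (0.222). It was also lost, at a lower difference of 0.89, when the young quiescent array was dropped. Dropping either PRI-724 array ended the call too, while the difference stayed near 1.40, at 1.36 (young dropped) and 1.43 (old dropped). Such fits keep 1 PRI-724 array for every gene, so losing the call there does not single out Foxf1.

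The mesenchymal factors had unlike estimates of how far PRI-724 cells stood from quiescent cells, and the differences between factors were not tested. Hand2 was 1.05 ± 0.31 above (adjusted p = 0.112), at 1.43 in the old and 0.67 in the young pair. Gata6 was above by 1.26 in the old and 0.74 in the young pair (adjusted p = 0.0976, and 0.0389 and 0.0334 after cyclic loess and quantile normalization), and Lhx2 0.66 ± 0.28 above, at 0.67 and 0.65. Tcf21 stood at -0.18 ± 0.33, with 0.43 in the old and -0.79 in the young pair. The remaining members were Nr1h4 at -0.77 ± 0.29, Ets1 at -0.56 ± 0.26, Sox9 at -0.39 ± 0.28, Gata4 at -0.29 ± 0.27 and Ets2 at 0.11 ± 0.27, and none of them passed. Ets1 stood at 8.72 (old) and 8.48 (young) with PRI-724, 8.74 and 8.80 with vehicle and 9.19 and 9.14 in quiescent cells, so quiescent was highest at both ages. In this comparison 6 of 8 sinusoidal endothelial, 6 of 8 vascular endothelial and 9 of 10 macrophage markers fell. Their medians were -2.92, -2.14 and -2.61. Of the 12 stellate markers 2 rose and 1 fell, of the 7 mesothelial markers 2 rose, and of the 9 hepatocyte markers 1 fell. The part of any of these cell types in the values of the members was not tested.

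The last comparison asked whether the factors differed between old and young cells over the 3 states. No member passed the threshold in limma (0 of 10, where 0.515% of tested genes did), and 4 had an unadjusted p under 0.05, where 10.4% of tested genes did. All 4 were higher in old cells, Gata6 by 0.75 ± 0.24 (SE, n = 3 pairs of arrays, adjusted p = 0.279), Tcf21 by 0.72 ± 0.27 (0.385), Foxf1 by 0.69 ± 0.26 (0.384) and Nr1h4 by 0.54 ± 0.24 (0.468). Gata6 was higher in old cells in each state, by 1.15 with PRI-724, 0.47 with vehicle and 0.63 in quiescent cells. Tcf21 differed by 1.28 and 0.81 in the cultured states and by 0.07 in quiescent cells, while Foxf1 differed by 1.37 in quiescent cells and 0.06 with vehicle. In all, 5 members were higher in old cells in every state (21% of tested genes) and Ets2 alone was lower in every state (11.3%), at -0.02 with PRI-724, -0.81 with vehicle and -0.20 in quiescent cells, while 4 members had mixed signs (67.6% of tested genes). Hepatocyte markers moved with age too, 4 of 9 being higher in old cells, among them Alb, albumin, by 2.31 ± 0.31 and Apob by 2.70 ± 0.24. Nr1h4 is strongly expressed in hepatocytes, and the part of these cells in its difference was not tested.

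**Figure D5:**
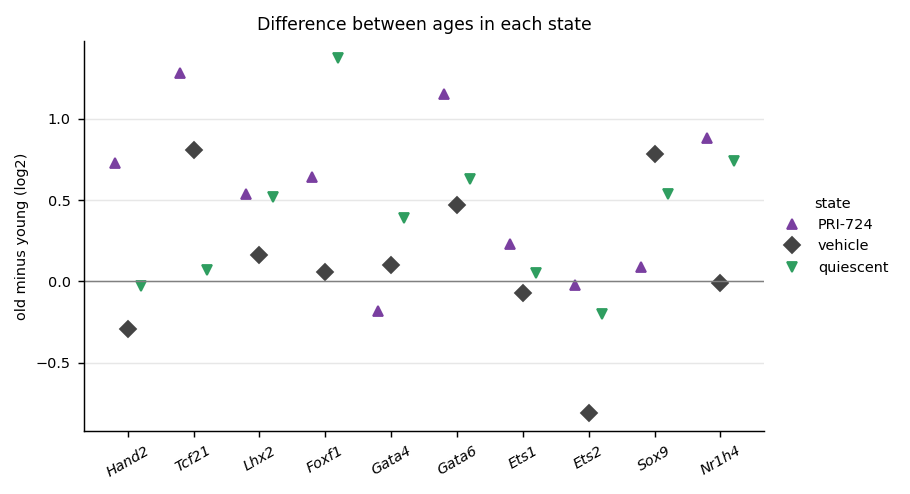
Old minus young difference in log2 units (vertical axis) for the 10 genes (horizontal axis), with 1 symbol for each state. Gata6, Tcf21, Lhx2, Foxf1 and Sox9 are above 0 in all 3 states, and Ets2 is below 0 in all 3.

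Relatives and partners of the members were counted in the same comparisons. The shares of all tested genes were 4.61% rising and 1.26% falling in vehicle over quiescent cells, 0.271% and 1.93% in PRI-724 over vehicle cells and 1.28% and 2.43% in PRI-724 over quiescent cells, and no list was tested against these shares. Of the 13 helix-loop-helix relatives and partners, 1 rose in vehicle over quiescent cells and 0 fell, and 2 fell and 0 rose with PRI-724 over vehicle. The gene that rose was Id1, by 1.52 ± 0.31, and those that fell were Id4 by 1.87 ± 0.32 and Id2 by 1.65 ± 0.29. Id proteins lack the DNA-binding region and hold E proteins away from partners such as Hand2 and Tcf21. Id4 and Id2 also fell in PRI-724 over quiescent cells, at -2.01 ± 0.32 and -1.30 ± 0.29. The median of this list was 0.31 in vehicle over quiescent and -0.33 in PRI-724 over vehicle cells, beside 0.04 and -0.05 over all tested genes. Of the 10 LIM homeodomain relatives and LIM-binding partners of Lhx2, 0 passed in any of the 4 comparisons (limma).

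Of the 11 tested GATA and forkhead relatives and cofactors, Gata5 alone passed, rising by 1.08 ± 0.27 in vehicle over quiescent cells. Of 14 other ETS genes, Etv1 rose by 1.75 ± 0.35 in vehicle over quiescent cells, and Erg and Fli1 fell with PRI-724 as given above. Erg was lower by 2.76 ± 0.46 in PRI-724 than in quiescent cells as well. Of 9 other SOX genes, Sox18, a factor of endothelium, rose by 1.48 ± 0.24 in vehicle over quiescent cells and fell by 2.10 ± 0.24 with PRI-724 over vehicle, and Sox17, also endothelial, fell by 1.42 ± 0.27 in PRI-724 over quiescent cells.

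Among 17 nuclear receptors, Rarb, a retinoic acid receptor, rose by 2.21 ± 0.39 and Nr2f2 by 1.41 ± 0.27 in vehicle over quiescent cells. With PRI-724 over vehicle, Rarb fell by 1.82 ± 0.39 and Pparg, a receptor linked to lipid storage and quiescence, by 1.69 ± 0.29. Of 3 tested FXR targets and 6 tested Sox9 targets, 0 passed in any of the 4 comparisons (limma). Among 27 other mesenchymal and myofibroblast factors, Tbx20, a T-box factor, rose by 1.56 ± 0.30 and Snai2 by 1.55 ± 0.30 in vehicle over quiescent cells. Tbx20 was also higher in PRI-724 than in quiescent cells, by 1.56 ± 0.30, with a PRI-724 minus vehicle difference of 0.00 ± 0.30. Klf4 was the gene of this list that rose with PRI-724 over vehicle, by 1.40 ± 0.29. In the comparison of ages 0 genes of these lists passed (limma).

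Genes with the most similar pattern were sought for Hand2, Tcf21 and Foxf1, the members that spanned at least 2 log2 units over the 6 arrays. For Hand2 these were Fam110c (Pearson r = 0.996), Ect2 (0.996), which encodes an exchange factor of cell division, and Sumf1 (0.995). For Tcf21 they were Ppp1r16b (0.997), Galnt7 (0.989), a glycosyltransferase, and Ulbp1 (0.988). For Foxf1 they were Serpinh1 (0.996), the collagen chaperone, Tex9 (0.996) and Tpmt (0.995). These correlations are over 6 arrays that differ in state, age and signal range, and 950, 430 and 509 of 13804 genes exceeded an r of 0.9 with Hand2, Tcf21 and Foxf1.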

How the data were processed

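RNA of 6 pooled stellate cell samples was measured on Affymetrix arrays. Total RNA was extracted on RNeasy columns, and the GeneChip WT PLUS reagents gave biotinylated target, per the labels' protocols. The deposited values are log2 signals made by the authors with Affymetrix Expression Console and RMA, per the submitters' processing notes. The sources used here do not give versions or options.

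Of 41345 probe sets, 23521 had 1 gene symbol in the platform's annotation, 1814 several and 16010 none, and the last 2 kinds were not used. The probe set with the highest mean stood for a gene (22180 genes), and the lowest 30% by mean (log2 signal under 4.70) were left out. Limma 3.58.1 in R 4.3.3 was fitted on age and state over all 6 arrays, with empirical Bayes variances that follow the mean signal (2 residual and 7.76 prior degrees of freedom). Adjustment followed Benjamini and Hochberg across the 15526 genes tested, and a gene was called at an adjusted p under 0.05. With 1 array per group, a gene's own error in a state difference is how far the 2 ages disagree, and in an age difference how far the states disagree. By the degrees of freedom above, the SE rests more on genes of like mean signal than on that error. The number of arrays limits the precision. Nothing says that pools of an age shared mice.

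The members and lists were chosen with earlier results of these data known. Named genes were all members, up to 4 genes past the threshold for each list of transcription factors, partners or targets and each comparison, and the 3 genes most correlated with a member spanning at least 2 log2 units. Of markers of stellate, endothelial, macrophage, hepatocyte and mesothelial cells, summed signals are given, with examples past the threshold. Among the tested markers of cholangiocytes, portal fibroblasts, smooth muscle and lymphocytes, only Fbln2, of portal fibroblasts, passed. It rose by 1.89 ± 0.41 log2 units in vehicle and by 3.05 ± 0.41 in PRI-724 over quiescent cells. The alternatives were no filter, a filter of 50%, the mean of a gene's probe sets, no trend, no age (or state) term, only the arrays compared, cyclic loess, quantile normalization and each array left out. In a state comparison, leaving out an array of the third state is in effect the fit with only the arrays compared. The model was tested on simulated data. Promoters came from RefSeq (GRCm38.p6). Figures used Python 3.11.15, pandas 2.3.3 and matplotlib 3.10.9.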

Additional observations from a re-analysis of the deposited data

Results flagged for a closer look

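Some members moved in opposite directions in the old and the young pair of arrays. With 1 array in each group these differences between ages were not tested. In vehicle minus quiescent, Ets2 had -0.57 in the old and 0.04 in the young pair, where 25.9% of tested genes had opposite signs. In PRI-724 minus vehicle, Gata6 had 0.19 in the old and -0.49 in the young pair, Ets2 0.77 and -0.03, and Sox9 -0.14 and 0.55, where 39.1% of tested genes had opposite signs. In PRI-724 minus quiescent, Tcf21 had 0.43 in the old and -0.79 in the young pair, where 44.3% of tested genes had opposite signs.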

How the results depend on the processing

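Of 550 values of single members under another setting, 488 kept their direction and their side of the threshold, 28 lost a call, 11 gained one and 23 changed sign. The number of members past the threshold in vehicle minus quiescent was 3. It was 4 without the intensity trend (with Lhx2 added), 2 after cyclic loess (Hand2 and Gata6), 1 without age in the model, with only the arrays compared or after quantile normalization, and 1 to 3 with an array left out, Hand2 being called each time. It was 3 with no filter, a filter of 50% or the mean of a gene's probe sets. In PRI-724 minus vehicle it was 1. It was 0 without age in the model, after cyclic loess or quantile normalization, 2 with only the arrays compared, and 0 to 3 with an array left out. In PRI-724 minus quiescent it was 1, and it was 0 without the intensity trend or without age in the model and 0 to 1 with an array left out. After cyclic loess and quantile normalization the 1 gene called there was Gata6 and not Foxf1. In old minus young it was 0 throughout. The number of members at least 1 log2 unit apart at both ages in culture was 3, 2 after cyclic loess (Hand2 and Tcf21) and 1 after quantile normalization (Hand2). The number of all 15526 tested genes past the threshold changed too. In vehicle minus quiescent it was 911 in the main fit and 114 without age in the model. With only the arrays compared it was 481, after cyclic loess 482 and after quantile normalization 331. In the same order it was 341, 91, 965, 103 and 84 in PRI-724 minus vehicle. In PRI-724 minus quiescent it was 577, 217, 1064, 546 and 534. With an array left out it changed as well. The cause of these changes was not tested, beyond the smaller number of arrays in some.

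The changes of sign were among differences without a call. After cyclic loess and quantile normalization, PRI-724 minus vehicle was 0.07 and 0.16 for Gata6 and 0.01 and 0.11 for Ets1, and old minus young was -0.06 and -0.02 for Ets1. After cyclic loess, old minus young was -0.01 for Hand2 and -0.04 for Gata4. With an array left out, vehicle minus quiescent ranged from -0.61 to 0.09 for Ets2, and PRI-724 minus vehicle from -0.45 to 0.15 for Gata6, -0.14 to 0.80 for Foxf1 and -0.08 to 0.49 for Sox9. PRI-724 minus quiescent ranged from -0.67 to 0.31 for Tcf21 and -0.14 to 0.35 for Ets2, and old minus young from -0.16 to 0.35 for Hand2, -0.04 to 0.24 for Gata4 and -0.01 to 0.14 for Ets1. The model used throughout pairs the arrays of an age, and the fit without age is its unpaired form.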
